A study of Mus musculus with 8 samples.

Results

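The mRNA of epididymal white adipose tissue (eWAT) was compared between HuR-FKO and Ctrl mice across 8562 genes, with attention to genes and gene classes outside lipid synthesis, the respiratory chain and the stress response. All 4 mRNA libraries of the series were used, of 8 libraries in all, and every gene of the deposited table was kept. In the paper's breeding scheme HuR-FKO mice were AdipoQ-Cre;HuR f/f and Ctrl mice were their HuR f/f littermates. By that scheme the floxed alleles were common to both groups and the Cre transgene was not. The sample titles call the Ctrl libraries WT. All mice were males aged 6 weeks, from HuR flox stock backcrossed to C57BL/6 for 2 generations. Each library (Ctrl 1, Ctrl 2, HuR-FKO 1 and HuR-FKO 2) came from the pooled tissue of 3 mice, so n = 2 pools per genotype. The adiponectin promoter drives Cre in adipocytes, and the vascular, immune, stromal and mesothelial cells of the same tissue keep HuR. Because whole tissue was measured, fewer cells of a type and less RNA per cell cannot be told apart.

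HuR, the product of Elavl1, is an RNA-binding protein that attaches to U-rich and AU-rich stretches of mRNA, mostly in the 3' untranslated region, and is best known for protecting its targets from decay. White adipocytes store triglyceride under the control of insulin and catecholamines, secrete hormones, and share the tissue with macrophages, endothelial cells and progenitors. A change in the mRNA level of a whole depot can therefore arise in adipocytes or in cells that never lost the gene.

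Levels are given in RPKM, coding reads of a gene per unit of its coding length and of the depth of the library, and changes as the difference between genotypes in log2(RPKM + 1), HuR-FKO minus Ctrl, with its standard error (SE). The libraries held 5223721 to 8060054 coding reads, and the median gene had 244 to 365.5 reads. Replicate libraries correlated at 0.989 (Ctrl) and 0.991 (HuR-FKO) across genes, against 0.971 to 0.974 between genotypes. Elavl1 itself (NM_010485, chromosome 8) measured 40.8 and 49.8 RPKM in Ctrl and 41.6 and 43.3 RPKM in HuR-FKO, a difference of -0.08 ± 0.13 (limma, adjusted p = 0.70). The genotypes overlapped. Reads were counted over the whole coding sequence, in tissue that also holds cells without Cre, and the part of either was not tested. The gene therefore did not check the genotype labels, and HuR-FKO below stands for the libraries so labelled. The paper reports loss of HuR in the adipose tissues of HuR-FKO mice, eWAT included, by real-time PCR and western blot. Adipoq, the adipocyte hormone gene whose promoter drives Cre, had 4668 and 4587 RPKM in Ctrl and 4495 and 4895 RPKM in HuR-FKO.

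In all, 642 genes rose and 560 fell in HuR-FKO at an adjusted p under 0.05 (limma with a mean-dependent prior, Benjamini-Hochberg over all genes), which is 7.50% and 6.54% of the 8562 tested and 14.0% together. The median change was 0.65 among the rises, -0.58 among the falls and 0.02 over all genes. None of the called genes had overlapping genotypes, but neither did 5166 genes in all, so a lack of overlap alone says little with 2 libraries a group. Changes were mostly moderate, with 541 of the called genes under 1.5-fold. Outside lipid and sterol synthesis, the respiratory chain, ribosomes, proteasome and immediate early and stress genes, 612 of 8127 genes rose and 489 fell, and 91 rises and 38 falls exceeded 2-fold. Fewer genes were called without either HuR-FKO library than without either Ctrl library. Without a HuR-FKO library the spread came from the Ctrl pair alone, and without a Ctrl library from the HuR-FKO pair. Across genes, log2 differences within the pair had an SD of 0.257 in Ctrl and 0.221 in HuR-FKO. A gene can lose its call there with its difference unchanged, as Il1r1 did (0.76 to 0.78 with each library left out). Without HuR-FKO 1 the counts were 131 higher and 95 lower, and without HuR-FKO 2 they were 139 and 97, where the lone library was assumed to vary like the pair left in. Without Ctrl 1 they were 925 and 717.

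**Figure D1:**
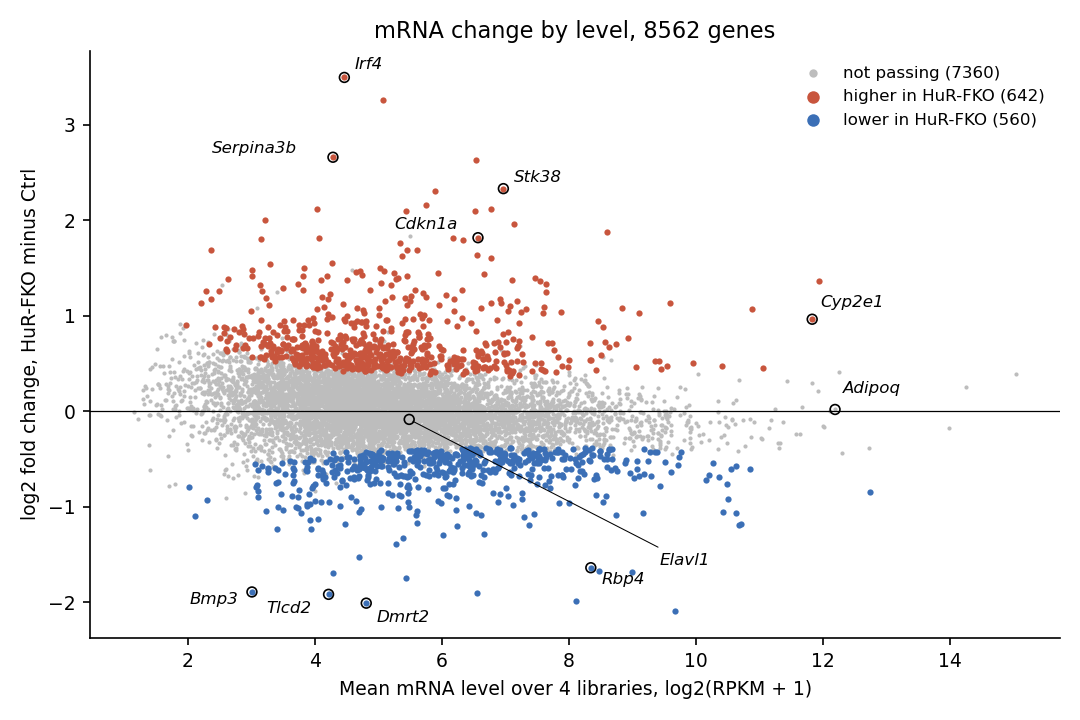
Change in mRNA (HuR-FKO minus Ctrl, log2 of RPKM + 1) against the mean level over the 4 libraries, one point per gene. Red points rose (642) and blue points fell (560) at an adjusted p under 0.05, with circled genes named; Irf4 lies highest among the named genes at 3.50, and Elavl1 lies near 0.

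The largest rises included regulators of transcription and of cell survival. Irf4 (NM_013674, GRCm38.p6 chromosome 13, 30749233 to 30766981), an interferon regulatory factor known from lymphocytes and from the fasting response of fat, measured 7.86 and 3.85 RPKM in Ctrl and 73.1 and 73.0 RPKM in HuR-FKO. Both HuR-FKO libraries stood far above both Ctrl libraries, and the change was 3.50 ± 0.23 (SE, n = 2 libraries each; limma adjusted p = 2.7e-05). Stk38 (NM_134115, chromosome 17, 28970880 to 29008010), which encodes an NDR family kinase, went from 56.0 and 53.4 to 283 and 276 RPKM, a change of 2.33 ± 0.11 and the smallest adjusted p of the rises named here (4.3e-06). Cdkn1a (NM_001111099, chromosome 17, 29090979 to 29100722), the gene of the cell cycle inhibitor p21, went from 51.3 and 47.7 to 189 and 165 RPKM (1.82 ± 0.12). These 2 genes are close neighbours on the chromosome. Bcl2l1 (NM_009743, chromosome 2, 152758732 to 152833803), which encodes the survival protein Bcl-xL, went from 36.9 and 37.7 to 138 and 129 RPKM (1.81 ± 0.11). Mbd1, a methyl-CpG binding protein gene, went from 21.7 and 25.0 to 83.0 and 71.8 RPKM (1.69 ± 0.13). Zyg11a, whose product belongs to a family of substrate receptors of a cullin ubiquitin ligase, was low at 4.93 and 2.63 RPKM in Ctrl and reached 18.6 and 16.6 RPKM (2.00 ± 0.22). The gene listed as 8430408G22Rik, now named Depp1, went from 39.5 and 67.0 to 236 and 219 RPKM (2.12 ± 0.20). These genes were chosen as called without overlap and for the size of the change, so the gap between genotypes adds no support. With each library left out in turn the changes kept their direction, at 3.06 to 3.93 in Irf4 and 1.65 to 2.35 in Zyg11a.

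Secreted proteins formed a further set among the largest rises. The serpin A3 genes encode inhibitors of serine proteases, are clustered on chromosome 12, and share near-identical sequence, so their individual values are uncertain. Serpina3b went from 9.29 and 4.82 to 42.6 and 53.9 RPKM (2.66 ± 0.24, limma adjusted p = 0.00015). Serpina3k was higher in level, with 29.8 and 19.8 RPKM in Ctrl and 103 and 122 RPKM in HuR-FKO (2.16 ± 0.18). Serpina3i stayed low, at 2.54 and 1.32 against 7.65 and 8.88 RPKM (1.69 ± 0.24). In all 3 genes Ctrl 2 was the lowest library and HuR-FKO 2 the highest. Saa3, an acute-phase serum amyloid gene, went from 5.48 and 8.43 to 35.4 and 30.5 RPKM (2.11 ± 0.18). S100a8, a subunit of calprotectin abundant in neutrophils, went from 2.73 and 5.07 to 17.1 and 14.3 RPKM (1.81 ± 0.23). Adamts1, which encodes a secreted metalloprotease, went from 22.3 and 30.5 to 82.7 and 90.8 RPKM (1.69 ± 0.15). Among all 18 serpins measured, 7 rose and 1 fell, 44.4% against 14.0% of all genes, with a median change of 0.16. Serpina3i missed the threshold without HuR-FKO 1 (adjusted p = 0.0617) and without HuR-FKO 2 (0.0872), and S100a8 missed it without HuR-FKO 1 (0.0552).

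Membrane and signalling proteins made up the rest of the largest rises. Acvr1c, which encodes the activin receptor ALK7 of adipocytes, went from 30.9 and 16.2 to 75.4 and 67.4 RPKM (1.63 ± 0.23). Ctrl 1 lay well above Ctrl 2, and the call was lost without HuR-FKO 1 (limma adjusted p = 0.064) and without HuR-FKO 2 (0.0501). Ms4a4a and Ms4a6c encode membrane proteins with 4 spans, found mainly on myeloid cells. Ms4a4a went from 8.00 and 7.86 to 35.1 and 26.4 RPKM (1.82 ± 0.16), and Ms4a6c from 9.26 and 11.4 to 33.7 and 30.8 RPKM (1.56 ± 0.14). Slc10a6, a carrier of sulfated steroids, went from 5.56 and 3.98 to 16.2 and 15.1 RPKM (1.54 ± 0.18). Mcf2l went from 16.4 and 26.7 to 77.8 and 68.7 RPKM (1.76 ± 0.19). Fam13a went from 60.5 and 45.3 to 154 and 176 RPKM (1.64 ± 0.15). The lack of overlap in the genes named as largest rises and falls follows from the rule that chose them.

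**Figure D2:**
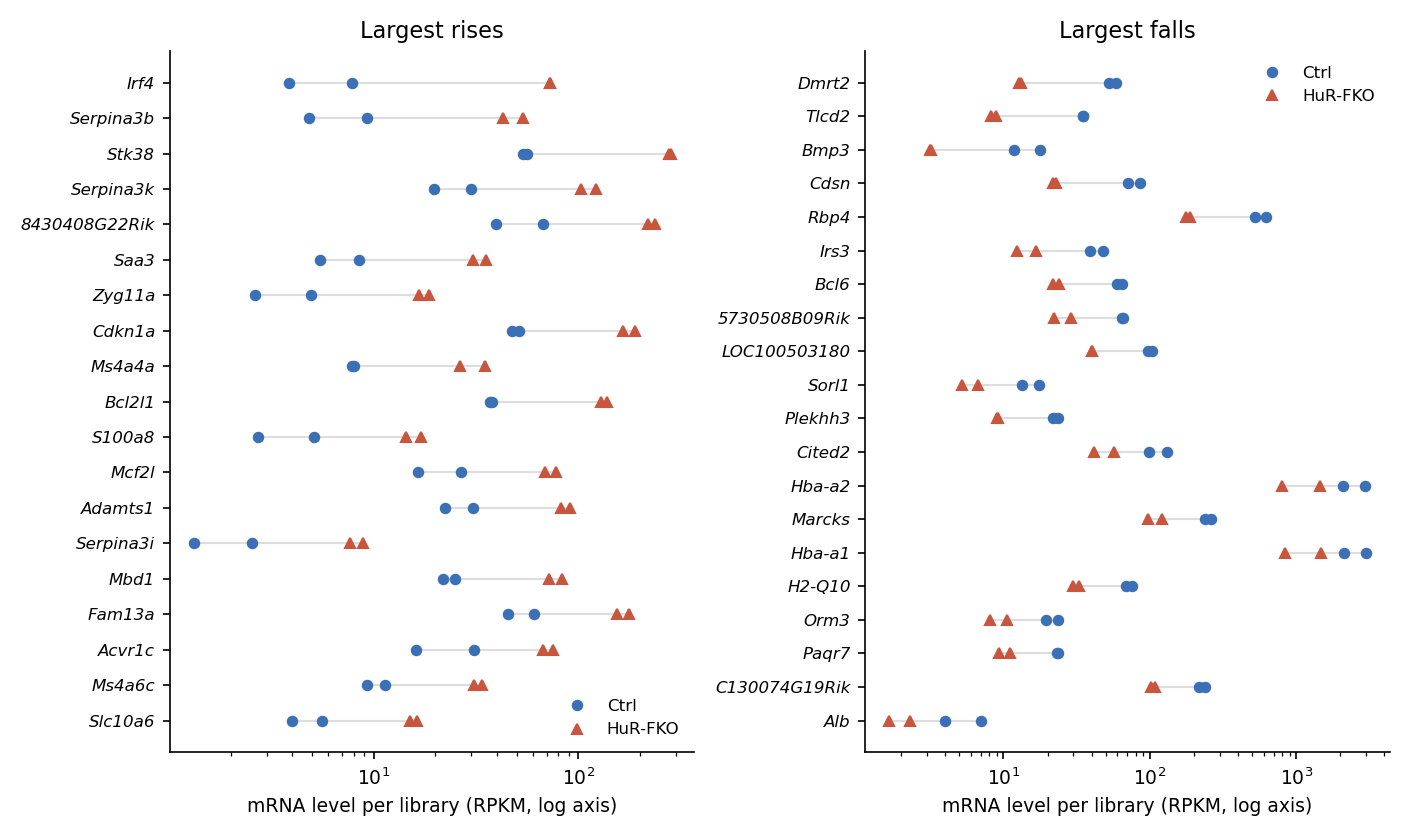
mRNA level in RPKM (log axis) in each of the 4 libraries for 19 of the 20 largest rises (left) and the 20 largest falls (right) outside the classes left out. Each point is a library, coloured by genotype; the genes were chosen as called without overlap, which fixes the separation, and what varies is its size, from 3.50 in Irf4 to -2.01 in Dmrt2 on the log2(RPKM + 1) scale.

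The largest falls began with transcription factors and signalling proteins, and all of them kept their call without any 1 library. Dmrt2 (NM_145831, chromosome 19, 25672394 to 25679013), a transcription factor with a doublesex-type DNA-binding domain, measured 52.2 and 58.2 RPKM in Ctrl and 13.2 and 12.7 RPKM in HuR-FKO. It was 4.26-fold lower (-2.01 ± 0.12, limma adjusted p = 2.7e-05), with little spread within either genotype. Bmp3 (NM_173404, chromosome 5, 98854415 to 98884053), a member of the BMP ligands known for opposing the others, went from 11.9 and 17.6 to 3.13 and 3.22 RPKM (-1.89 ± 0.20). Bcl6, a transcriptional repressor, went from 59.8 and 64.0 to 24.1 and 21.9 RPKM (-1.39 ± 0.12). Irs3, an insulin receptor substrate that rodents express in fat, went from 38.9 and 47.5 to 12.4 and 16.6 RPKM (-1.52 ± 0.16). Cited2, which binds the coactivators CBP and p300, went from 130 and 99.2 to 57.0 and 41.6 RPKM (-1.21 ± 0.17). Marcks, a membrane-bound substrate of protein kinase C, went from 263 and 237 to 122 and 96.9 RPKM (-1.19 ± 0.14).

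Secreted and membrane proteins also fell. Rbp4 (NM_001159487, chromosome 19, 38116620 to 38125321), the retinol carrier of plasma that adipocytes also secrete, was the most abundant of these, with 525 and 622 RPKM in Ctrl and 177 and 189 RPKM in HuR-FKO. Its level was 3.13-fold lower (-1.64 ± 0.12, limma adjusted p = 5.5e-05). Cdsn, corneodesmosin, known as an adhesion protein of the epidermis, went from 70.9 and 85.1 to 21.9 and 23.0 RPKM (-1.75 ± 0.13). Tlcd2, a membrane protein with a TLC domain, went from 35.2 and 34.9 to 8.83 and 8.27 RPKM (-1.92 ± 0.13). H2-Q10, a class I histocompatibility gene with close relatives that could share its reads, went from 75.6 and 68.3 to 32.9 and 30.01 RPKM (-1.17 ± 0.12). Paqr7, a membrane progestin receptor, went from 23.7 and 23.2 to 11.1 and 9.37 RPKM (-1.13 ± 0.14). Plekhh3 went from 21.6 and 23.5 to 9.13 and 8.97 RPKM (-1.23 ± 0.14), and within each genotype its libraries were nearly equal. Sorl1, a sorting receptor of the endosome, went from 13.3 and 17.5 to 5.21 and 6.73 RPKM (-1.23 ± 0.18). Orm3, an orosomucoid gene of the acute-phase type, went from 19.5 and 23.6 to 8.03 and 10.5 RPKM (-1.14 ± 0.17), the opposite direction to Saa3. Alb, the albumin gene, was low throughout, at 4.01 and 6.998 against 2.31 and 1.65 RPKM (-1.10 ± 0.27). Alb was the least secure of the set, with adjusted p-values of 0.0572 without Ctrl 2, 0.125 without HuR-FKO 1 and 0.216 without HuR-FKO 2. Without HuR-FKO 1, Orm3 (0.0507) and Sorl1 (0.0582) missed the threshold as well.

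The falls also held 3 genes with no assigned role and the alpha globins. The gene listed as 5730508B09Rik (now Fam241a) went from 64.0 and 65.6 to 29.1 and 22.1 RPKM (-1.32 ± 0.14). C130074G19Rik went from 216 and 239 to 102 and 108 RPKM (-1.10 ± 0.12), and LOC100503180, a predicted transcript, from 97.8 and 104 to 40.3 and 40.5 RPKM (-1.30 ± 0.11). In LOC100503180 the HuR-FKO libraries were nearly equal. Hba-a1, an alpha globin gene, measured 2991 and 2108 RPKM in Ctrl and 836 and 1467 RPKM in HuR-FKO (-1.18 ± 0.24, limma adjusted p = 0.013). Hba-a2 is its near-identical copy and was nearly equal to it in every library (-1.19 ± 0.25). Without HuR-FKO 1 the changes were -0.78 and -0.76 and neither passed (adjusted p = 0.113). With the trend over transcript length and G+C content removed, neither passed (adjusted p = 0.0938 and 0.104).

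Short motifs were looked for in the promoters of these genes, taken from RefSeq (GRCm38.p6) as 250 bases before to 50 after the start, which matched 6713 of the genes tested. Both strands were read. Of these genes 1350 had more than 1 promoter, and a gene counted where any of its promoters held the motif. ACANNNTGT is the core spacing of the glucocorticoid response element. It was found for 4.69% of all matched genes, 7.58% of those that rose (38 of 501) and 4.41% of those that fell (19 of 431). It was found for 5 (31.2%) of the 16 matched genes among the largest rises and for 1 of 17 among the largest falls, Orm3. CACGTG, an E-box, was in 12.3%, 10.2% and 10.7% respectively. TTATGTAA, a D-box, was in 0.67%, 0.998% and 1.39%, and TGACGTCA, the cAMP response element, in 3.52%, 3.99% and 2.78%. No motif contains another, though their ends can overlap, and all but TTATGTAA read the same on both strands. A match describes letters and does not show a site in use. The matches in the named genes are shown with up to 10 bases on each side and the motif in capitals, on the strand of the gene, so that the spacing of each can be read beside the direction of its gene.

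Bcl2l1, rose (chr2:152828625-152828653, minus strand): agatttggtgACAGACTGTatgtgggtgt

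Ms4a6c, rose (chr19:11469367-11469395, plus strand): gtaacagtccACAGCCTGTaagcaccact

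Slc10a6, rose (chr5:103629546-103629574, minus strand): cttccctagaACACGATGTgccactgtcg

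Serpina3i, rose (chr12:104263057-104263085, plus strand): agcccagagcACAGCTTGTattcatcagc

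S100a8, rose (chr3:90669086-90669114, plus strand): cgtcttcaagACATCGTGTaagtagggct

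Orm3, fell (chr4:63356110-63356138, plus strand): tgccctccccACATCCTGTtataaaagcc

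Stk38, rose, D-box (chr17:29008223-29008245, minus strand): gtgccTTATGTAAgaccttgagg

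Alb, fell, D-box (chr5:90460637-90460664, plus strand): gattaagctcTTATGTAAaatttgctgt

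Alb, fell, second D-box (chr5:90460656-90460683, plus strand): atttgctgttTTACATAActttaatgaa

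Bcl6, fell, E-box (chr16:23988897-23988922, minus strand): tcacggagccCACGTGacggcggcgg

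Cited2, fell, E-box (chr10:17723065-17723090, plus strand): agccgctgcgCACGTGcagcgcggac

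Sorl1, fell, E-box (chr9:42124301-42124326, minus strand): tgcgagctcaCACGTGacggcacggc

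Growth arrest genes were called in both directions. Of 24 cyclin-dependent kinase inhibitors and growth arrest genes measured, 7 rose and 7 fell, 58.3% against 14.0% of all genes, with a median change of 0.08. Beside Cdkn1a above, Gadd45g, of the growth arrest and DNA damage inducible family, went from 138 and 118 to 377 and 247 RPKM (1.25 ± 0.18). Its relative Gadd45a moved the other way, from 27.3 and 37.9 to 14.6 and 12.8 RPKM (-1.18 ± 0.17). Tob2, an antiproliferative gene of the BTG and Tob family, went from 47.5 and 51.4 to 116 and 91.9 RPKM (1.05 ± 0.14). Without HuR-FKO 2, Gadd45a missed the threshold (limma adjusted p = 0.053).

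Among transcription factor families, the Kruppel-like factors were higher where they were called. Of 10 measured, 5 rose, none fell and 5 did not pass, so 5 of 10 were called where 14.0% of all genes were. Their median change was 0.51 beside 0.02 over all genes. Klf4 went from 60.4 and 60.8 to 173 and 159 RPKM (1.44 ± 0.11, limma adjusted p = 8e-05), the tightest of them. Klf2, known from endothelium, went from 83.9 and 97.2 to 221 and 161 RPKM (1.05 ± 0.16). Klf7 went from 8.50 and 10.7 to 19.5 and 15.2 RPKM (0.79 ± 0.17), and Klf9, a gene induced by glucocorticoid and thyroid hormone in many cells, from 85.9 and 71.8 to 137 and 123 RPKM (0.71 ± 0.13). Of 13 Ets factors 3 rose and 1 fell, 30.8% called against 14.0% of all genes. Their median of 0.15 turned to -0.02 once the length and G+C trend was removed. Elf4 (0.67 ± 0.15), Elk4 (0.67 ± 0.13) and Etv6 (0.51 ± 0.14) were the rises, and Ets2 went from 64.3 and 89.6 to 47.4 RPKM in both HuR-FKO libraries (-0.67 ± 0.15). Etv6 is a repressor, whereas Elk4 acts with serum response factor. Klf7, Klf9 and all 4 Ets genes missed the threshold without HuR-FKO 1 (adjusted p 0.0843 to 0.185) and without HuR-FKO 2 (0.0585 to 0.166). Without Ctrl 2, Ets2 was at -0.43 (adjusted p = 0.0541).

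Of 14 nuclear receptors for thyroid hormone, vitamin D, lipids and orphan ligands, 1 rose and 3 fell (28.6% against 14.0% of all genes, median -0.10). Nr1d1, the clock repressor Rev-erb alpha, went from 152 and 172 to 92.9 and 83.7 RPKM (-0.87 ± 0.12, limma adjusted p = 0.0019) and passed without any 1 library. Esrra, a regulator of mitochondrial genes, went from 49.9 and 53.5 to 35.5 and 25.4 RPKM (-0.76 ± 0.16), and Nr2f6, an orphan receptor, from 55.7 and 54.5 to 40.02 and 40.9 RPKM (-0.44 ± 0.11). Nr2c2, an orphan receptor, was the rise, at 9.42 and 6.52 against 13.4 RPKM in both HuR-FKO libraries (0.70 ± 0.18). Without HuR-FKO 2 these 3 were lost (adjusted p 0.121 to 0.192), and without HuR-FKO 1 Nr2c2 and Nr2f6 were (0.162 to 0.178). Nr2f6 was also lost without Ctrl 1 (0.0534), and Nr2c2 without Ctrl 2 (0.46, adjusted p = 0.0833). With the trend removed, Nr2f6 stood at -0.12 and Nr2c2 at 0.49, and neither passed (limma adjusted p = 0.55 and 0.0839). Nr2c2 was also lost with quantile normalization (0.061), and Nr2f6 with eBayes without trend (0.0509).

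**Figure D3:**
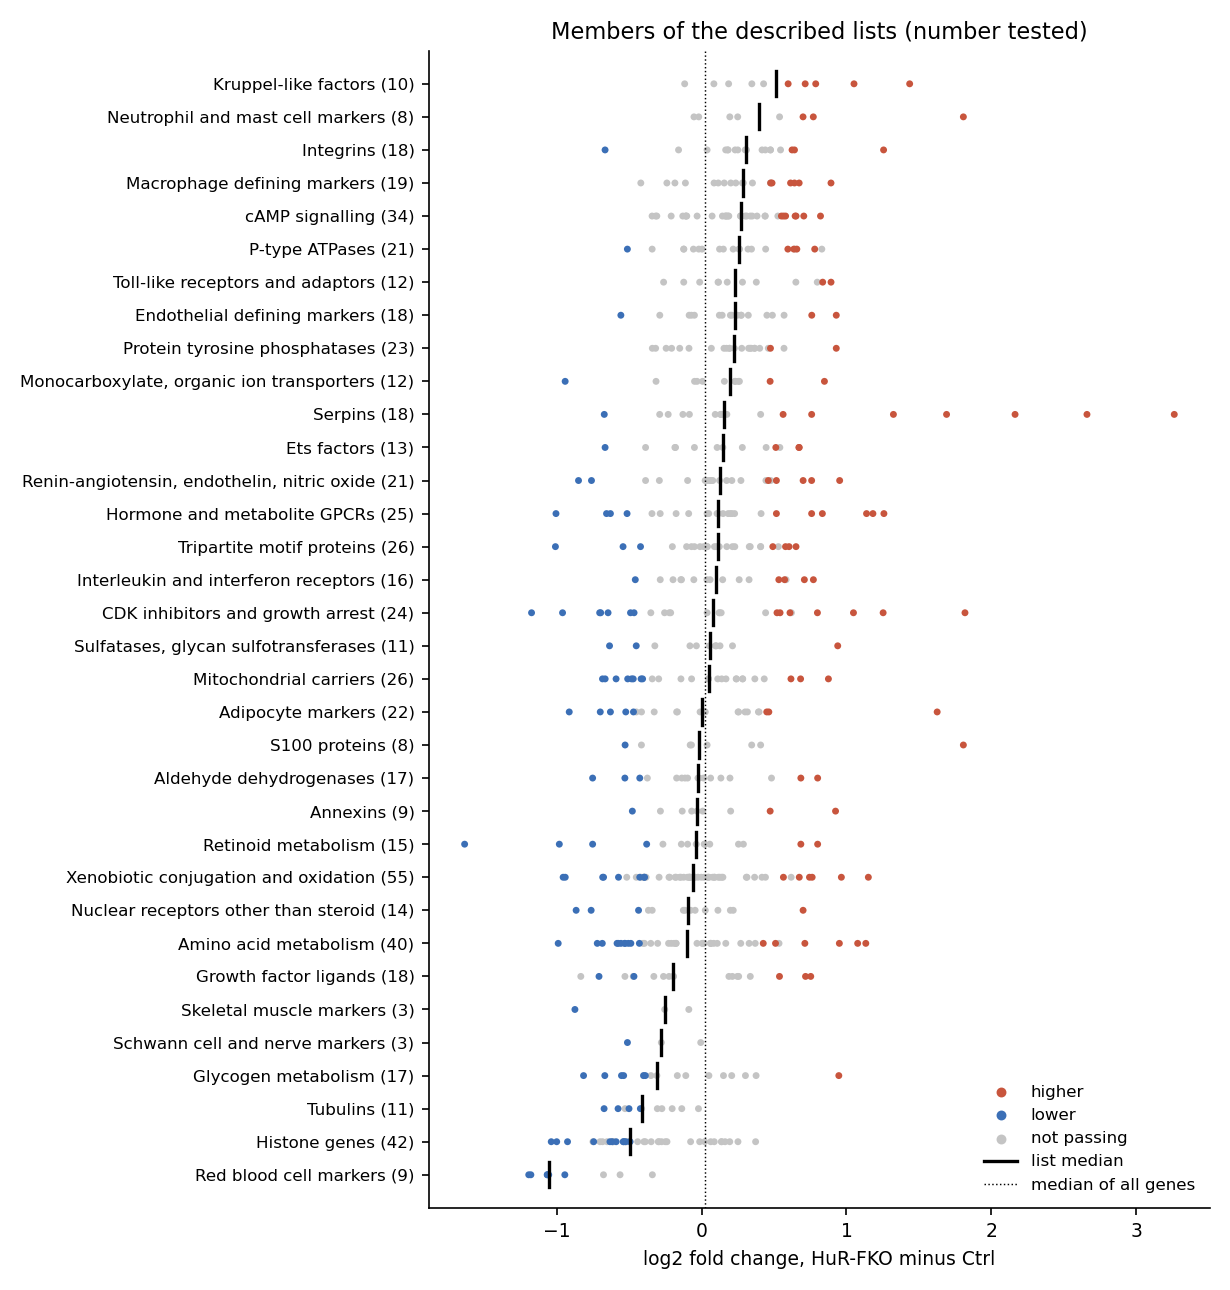
Change of each member in HuR-FKO (grey points, with red and blue where called higher or lower) and the median (bar) of the gene classes, marker lists and families described, on the log2(RPKM + 1) scale, beside the median of all genes as a dotted line. The Kruppel-like factors lie mostly above 0 (median 0.51), and the red blood cell markers (-1.06), histone genes (-0.50) and tubulins (-0.41) mostly below.

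Receptors for hormones and metabolites changed in both directions. Of 25 G protein-coupled receptors of this kind, 6 rose and 4 fell, which is 10 of 25 where 14.0% of all genes were called, with a median of 0.12. C5ar1, the complement C5a receptor of myeloid cells, went from 28.1 and 26.7 to 69.3 and 58.1 RPKM (1.18 ± 0.13, limma adjusted p = 0.00054). Gprc5a, an orphan receptor induced by retinoic acid, was low at 2.74 and 1.62 against 6.26 and 6.73 RPKM (1.26 ± 0.23). S1pr1, a receptor of sphingosine 1-phosphate on endothelium and lymphocytes, went from 57.3 and 92.1 to 149 and 175 RPKM (1.14 ± 0.19). Ptger3, a prostaglandin E receptor that lowers cAMP, went from 48.3 and 43.3 to 25.2 and 19.7 RPKM (-1.01 ± 0.14). Genes of cAMP signalling itself rose in 7 of 34 cases and fell in none (20.6% called against 14.0% of all genes, median 0.27). With the trend over length and G+C content removed the median was 0.17, and Gnai1, an inhibitory G protein subunit, was called lower beside 7 rises. Adcy4, an adenylyl cyclase, went from 15.9 and 23.7 to 35.9 and 34.3 RPKM (0.82 ± 0.17). Rapgef3, the cAMP sensor Epac1, went from 31.0 and 40.3 to 64.7 and 52.4 RPKM (0.70 ± 0.16). Crem, a cAMP-responsive transcription factor (0.65 ± 0.17), and Akap12, a scaffold for protein kinase A (0.65 ± 0.12), rose as well. Gprc5a, S1pr1, Adcy4, Rapgef3, Crem and Akap12 missed the threshold without HuR-FKO 1 (adjusted p 0.0618 to 0.163) and without HuR-FKO 2 (0.0719 to 0.233). Without Ctrl 1, Crem (0.43, adjusted p = 0.0658) was lost and Adcy4 stood at 0.55. C5ar1 and Ptger3 passed without any 1 library.

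Growth factor ligands moved in both directions. Of 18 measured, 3 rose and 2 fell, 27.8% called against 14.0% of all genes, and the median of -0.20 was 0.01 without Ctrl 2. Igf1, a growth factor made by fat and liver, went from 274 and 226 to 394 and 426 RPKM (0.72 ± 0.13, limma adjusted p = 0.0065). Angpt1, a ligand of the endothelial receptor Tie2, went from 20.3 and 15.8 to 27.1 and 35.3 RPKM (0.75 ± 0.17), and Kitl, the ligand of Kit, from 18.1 and 23.4 to 28.0 and 32.9 RPKM (0.54 ± 0.15). Gas6, a ligand of the TAM receptors by which phagocytes bind dying cells, went from 467 and 390 to 264 and 258 RPKM (-0.71 ± 0.12). Of 21 genes of the renin-angiotensin, endothelin, natriuretic peptide and nitric oxide systems 5 rose and 2 fell (33.3%, median 0.12). Adm, the vasodilator adrenomedullin, went from 25.8 and 22.6 to 55.3 and 41.1 RPKM (0.95 ± 0.15). Agtr1a, an angiotensin II receptor, went from 14.6 and 14.8 to 25.9 and 25.3 RPKM (0.76 ± 0.13). Enpep, the aminopeptidase that cleaves angiotensin II, went from 151 and 145 to 83.4 and 79.9 RPKM (-0.85 ± 0.11), and Npr3, the clearance receptor of natriuretic peptides, from 246 and 224 to 140 and 137 RPKM (-0.76 ± 0.11). Enpep and Npr3 passed without any 1 library. The other genes named here missed the threshold without HuR-FKO 1 (adjusted p 0.0582 to 0.124), and all of those but Adm without HuR-FKO 2 (0.06 to 0.275). Kitl was also lost without Ctrl 1 (0.124), with median ratio scaling, quantile normalization, eBayes without trend and voom (0.0506 to 0.0779), and with the trend removed, where it stood at 0.32 (0.274).

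Genes of glycogen metabolism were mostly lower where they were called. Of 17 genes measured 6 fell and 1 rose, 41.2% against 14.0%, with a median of -0.31. Gbe1, the glycogen branching enzyme, went from 72.4 and 70.9 to 42.6 and 38.1 RPKM (-0.82 ± 0.12, limma adjusted p = 0.0021). Pygl, a glycogen phosphorylase, went from 162 and 177 to 102 and 111 RPKM (-0.67 ± 0.12), and Gyg, the glycogenin that primes synthesis, from 85.5 and 96.6 to 55.1 and 68.8 RPKM (-0.55 ± 0.14). Enzymes of both synthesis and breakdown were thus among the falls. Ppp1r3c, a subunit that targets protein phosphatase 1 to glycogen, was the rise, from 14.0 and 16.1 to 29.3 and 30.6 RPKM (0.95 ± 0.13). Pygl and Gyg were lost without HuR-FKO 1 (adjusted p = 0.0828 and 0.195) and without HuR-FKO 2 (0.0525 to 0.0634).

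Retinoid metabolism had 2 rises and 4 falls among 15 genes, the others not passing, with a median near 0 (-0.04, and 0.04 with the trend removed). Beside Rbp4 above and Dhrs4 (-0.38), Dhrs7, a short-chain dehydrogenase, went from 179 and 211 to 95.2 and 100 RPKM (-0.98 ± 0.12, limma adjusted p = 0.00098). Aldh1a3 and Aldh1a2 make retinoic acid from retinal. Aldh1a3 went from 15.8 and 14.0 to 29.0 and 24.6 RPKM (0.80 ± 0.14), and Aldh1a2 from 10.95 and 9.97 to 17.5 and 17.3 RPKM (0.68 ± 0.14). The aldehyde dehydrogenases as a family had 2 rises and 3 falls among 17 (29.4% against 14.0% of all genes). Their median was -0.03, and 0.01 without HuR-FKO 1. Aldh1a7 went from 122 and 134 to 66.0 and 86.5 RPKM (-0.75 ± 0.14), and Aldh4a1, of proline breakdown, from 55.2 and 44.7 to 34.5 and 33.7 RPKM (-0.53 ± 0.13). The 4 aldehyde dehydrogenases were lost without HuR-FKO 1 (adjusted p 0.0917 to 0.144), Aldh1a2 and Aldh4a1 without HuR-FKO 2 (0.112 to 0.173) and Aldh4a1 without Ctrl 1 (0.0862).

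**Figure D4:**
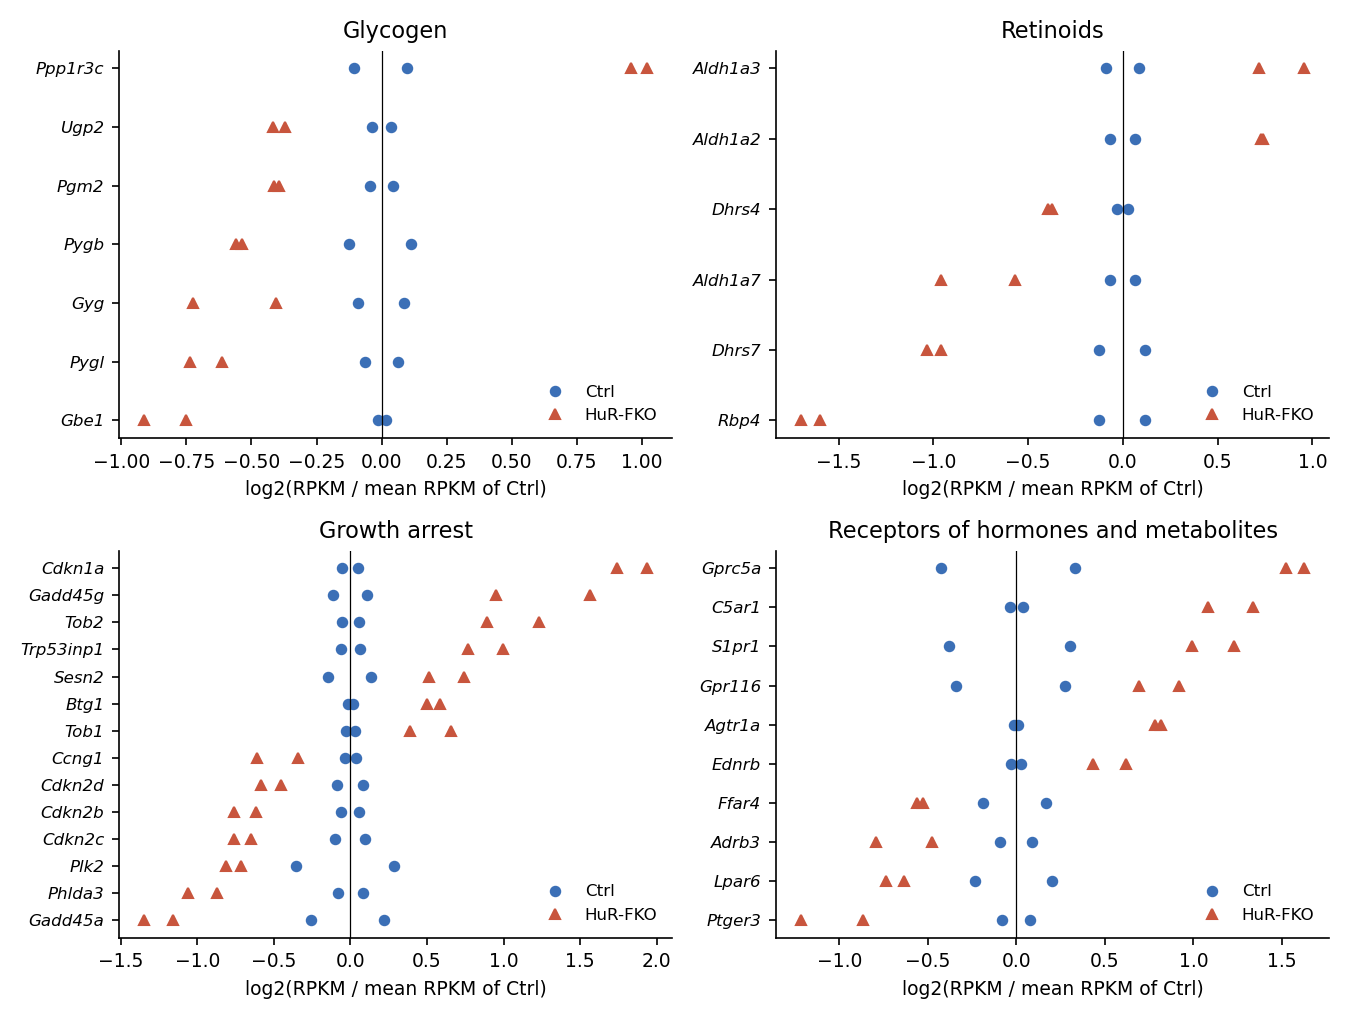
Level of each called member of 4 classes in the 4 libraries, as log2 of its RPKM over the mean RPKM of Ctrl, with blue circles for Ctrl and red triangles for HuR-FKO. Only called genes are shown, so the genotypes are apart by choice; among glycogen genes Ppp1r3c alone lies to the right of 0, and growth arrest genes split into 7 on each side.

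Amino acid metabolism other than that of branched-chain amino acids had 11 falls and 6 rises among 40 genes (median -0.11). That is 42.5% called, against 14.0% of all genes. With the trend over length and G+C content removed there were 8 falls and 8 rises. Tdo2, which opens the tryptophan ring, was low at 2.40 and 1.83 against 5.34 and 6.32 RPKM (1.13 ± 0.22). Chdh, choline dehydrogenase, went from 18.7 and 14.5 to 35.8 and 35.9 RPKM (1.08 ± 0.14, limma adjusted p = 0.0014), and Got1, the cytosolic aspartate aminotransferase, from 7.83 and 6.60 to 14.0 and 15.7 RPKM (0.95 ± 0.16). Gcat, of threonine breakdown, went from 20.5 and 19.1 to 8.88 and 10.1 RPKM (-0.99 ± 0.14). Of 55 genes of xenobiotic oxidation and conjugation 6 rose and 8 fell (25.5%, median -0.06). Cyp2e1, a cytochrome P450 that oxidises ethanol and acetone, was by far the most abundant of those named, with 2969 and 2274 RPKM in Ctrl and 4739 and 5427 RPKM in HuR-FKO (0.96 ± 0.15). Cyp4f17, another cytochrome P450, went from 21.5 and 22.6 to 54.0 and 46.7 RPKM (1.15 ± 0.13). The glutathione transferase genes Gsta3 and Gstk1 were among the falls, Gsta3 going from 308 and 328 to 153 and 175 RPKM (-0.96 ± 0.12) and Gstk1 from 86.8 and 80.8 to 36.04 and 51.5 RPKM (-0.94 ± 0.16). Tdo2, Got1 and Gstk1 missed the threshold without HuR-FKO 1 (adjusted p 0.0592 to 0.104), and Tdo2, Got1 and Cyp2e1 without HuR-FKO 2 (0.0695 to 0.168).

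Transport proteins were mixed. The mitochondrial carriers, which move metabolites across the inner membrane, had 3 rises and 8 falls among 26 (42.3% against 14.0% of all genes). Their median was 0.05, and -0.03 without HuR-FKO 2. Slc25a25, a carrier of ATP-Mg and phosphate, went from 26.8 and 25.1 to 48.7 and 48.1 RPKM (0.88 ± 0.12, limma adjusted p = 0.0015) and passed without any 1 library. Slc25a10, the dicarboxylate carrier, went from 264 and 306 to 185 and 172 RPKM (-0.67 ± 0.12). Slc25a35 (-0.69 ± 0.13) and Slc25a30 (0.68 ± 0.13) were the other large changes. Of 12 monocarboxylate and organic ion carriers 2 rose and 1 fell (25.0%), and the median of 0.19 was 0.07 with quantile normalization. Slco2a1, the prostaglandin transporter, went from 8.64 and 9.32 to 17.1 and 16.8 RPKM (0.85 ± 0.14), and Slc22a5, the carnitine transporter, rose by less (0.47 ± 0.13). Slc22a4, a transporter of ergothioneine, went from 20.3 and 22.1 to 9.57 and 11.6 RPKM (-0.94 ± 0.15). Of 21 P-type ATPases 4 rose and 1 fell (23.8%, median 0.26, and 0.14 with the trend removed), namely the phospholipid flippases Atp8b1 (0.78 ± 0.20), Atp8a1 (0.64 ± 0.19) and Atp11a (0.60 ± 0.15) and the copper pump Atp7a (0.66 ± 0.19) among the rises. None of these 4 ATPases passed once the length and G+C trend was removed (adjusted p 0.084 to 0.207), when Atp8a1 stood at 0.40. Of the 11 genes named in this paragraph, 10 were lost without HuR-FKO 1 (adjusted p 0.0513 to 0.276) and 9, all but Slc25a25 and Slc22a4, without HuR-FKO 2 (0.0717 to 0.251). Atp8a1 was lost without Ctrl 1 (0.55), and Slc22a5 (0.38) and Atp7a (0.52) without Ctrl 2. Atp7a and Atp8a1 were also lost with a pseudocount of 0.1, a filter at 5 RPKM and median ratio scaling (limma adjusted p 0.0509 to 0.0588). With quantile normalization Slc22a5, Atp8b1, Atp7a and Atp8a1 were lost (0.0702 to 0.141).

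Of 16 interleukin and interferon receptors 4 rose and 1 fell, 31.2% called against 14.0% of all genes. Their median of 0.10 was 0.01 with quantile normalization and 0.05 with the trend removed. Of 12 Toll-like receptors and adaptors 2 rose, 16.7% and so near the share of all genes, and the median of 0.23 was 0.12 with quantile normalization. Il1r1, the interleukin 1 receptor, went from 15.2 and 14.9 to 26.6 and 26.3 RPKM (0.77 ± 0.12, limma adjusted p = 0.0040). Il4ra and Il13ra1 are the subunits of a receptor for interleukins 4 and 13. Il4ra went from 25.8 and 31.3 to 52.7 and 42.0 RPKM (0.71 ± 0.15), and Il13ra1 from 7.19 and 7.30 to 10.97 and 11.6 RPKM (0.57 ± 0.15). Ifngr1, a subunit of the interferon gamma receptor, was far more abundant, at 260 and 277 against 397 and 381 RPKM (0.53 ± 0.11). Tlr5, the flagellin receptor (0.89 ± 0.18), and Irak2, a kinase below Toll-like and interleukin 1 receptors (0.84 ± 0.12), rose too. Of 26 tripartite motif proteins, many of them ubiquitin ligases, 4 rose and 3 fell (26.9%, median 0.11, and 0.05 with quantile normalization). Trim16 went from 17.9 and 17.8 to 7.57 and 9.23 RPKM (-1.01 ± 0.15), while Trim56 (0.65 ± 0.18), Trim24 (0.60 ± 0.12) and Trim25 (0.58 ± 0.12) were higher. All 10 genes missed the threshold without HuR-FKO 1 (adjusted p 0.0515 to 0.266), all but Irak2 and Trim16 without HuR-FKO 2 (0.0523 to 0.216), and Trim56 without Ctrl 2 (0.0805).

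Integrins, which anchor cells to matrix and to other cells, were mostly higher where they were called. Of 18 integrins 3 rose and 1 fell (22.2% against 14.0% of all genes, median 0.31). Itga3, an alpha subunit of laminin receptors, went from 4.35 and 5.30 to 13.9 and 11.9 RPKM (1.26 ± 0.17, limma adjusted p = 0.0016). Itgam and Itgb2 encode the subunits of the myeloid integrin Mac-1. Itgam went from 23.3 and 18.9 to 35.1 and 31.6 RPKM (0.64 ± 0.14) and Itgb2 from 29.96 and 31.1 to 50.8 and 44.6 RPKM (0.62 ± 0.12). Itgb5, which pairs with alpha V, went from 124 and 120 to 75.2 and 78.1 RPKM (-0.67 ± 0.11). Of 23 protein tyrosine phosphatases 2 rose and none fell, 8.70% called and so below the background, with a median of 0.23 that was 0.11 with the trend removed. Ptprb, the phosphatase of endothelial junctions, went from 24.6 and 34.04 to 55.3 and 56.9 RPKM (0.93 ± 0.15), and Ptpn1, which dephosphorylates the insulin receptor, from 26.5 and 29.8 to 37.8 and 41.3 RPKM (0.47 ± 0.13). Among 11 sulfatases and glycan sulfotransferases, Chst15 rose (0.94 ± 0.12) and Chst12 (-0.64 ± 0.12) and Sumf2 (-0.45 ± 0.13) fell, which is 27.3% called. The median of 0.05 in this family was -0.08 with the trend removed. Without HuR-FKO 1, only Chst15 of these passed (others 0.0552 to 0.251). Without HuR-FKO 2, Itga3 and Chst15 passed and the others did not. Ptpn1 and Sumf2 were also lost without Ctrl 1 (0.0788 to 0.0912), and Ptprb with the trend removed (0.65, adjusted p = 0.064).

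Tubulins fell where they were called, while annexins and S100 proteins were mixed. Of 11 tubulins 4 fell and none rose (36.4% against 14.0% of all genes, median -0.41, and -0.26 with quantile normalization). Tuba1a went from 736 and 840 to 496 and 489 RPKM (-0.67 ± 0.12, limma adjusted p = 0.0058), Tuba1c from 430 and 486 to 305 and 341 RPKM (-0.50 ± 0.12) and Tuba1b from 673 and 756 to 505 and 560 RPKM (-0.42 ± 0.12). These 3 alpha tubulins are near-identical in coding sequence and neighbours on chromosome 15, so their values are not independent. Tubg1, the gamma tubulin of the centrosome, fell by 0.58 ± 0.15. Of 9 annexins, which bind phospholipid with calcium, 2 rose and 1 fell (33.3%, median -0.03, and 0.08 with quantile normalization). Anxa8 went from 18.1 and 15.7 to 26.9 and 40.1 RPKM (0.92 ± 0.18), Anxa3 from 73.8 and 85.5 to 105 and 117 RPKM (0.47 ± 0.12) and the abundant Anxa2 from 940 and 1076 to 696 and 748 RPKM (-0.48 ± 0.12). Of 8 S100 proteins 1 rose and 1 fell (25.0% called). S100a8 rose, as given above, and S100a11 went from 745 and 1037 to 585 and 634 RPKM (-0.53 ± 0.15). The S100 median of -0.02 was 0.13 with the trend removed and also positive with quantile normalization. With the trend removed Tubg1 (adjusted p = 0.0737), Tuba1b (0.0553) and S100a11 (0.0731) missed the threshold, which left 2 tubulins called, and the S100 proteins had 3 rises and 0 falls. All the called tubulins, annexins and S100 genes but Anxa8 were lost without HuR-FKO 1, and all but S100a8 without HuR-FKO 2 (adjusted p 0.0559 to 0.279). Without Ctrl 2, Tubg1, Tuba1c, Tuba1b, Anxa2 and S100a11 were lost (0.0676 to 0.237), with S100a11 at -0.29, and without Ctrl 1 Anxa3 was (0.0912).

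Histone genes fell in 11 of 42 cases and rose in none (26.2% against 14.0% of all genes, median -0.50). Hist2h3c2 went from 14.3 and 10.9 to 7.47 and 4.09 RPKM (-1.04 ± 0.24, limma adjusted p = 0.021), Hist1h2bq from 11.3 and 17.5 to 8.53 and 4.98 RPKM (2.14-fold lower), Hist1h1d from 6.06 and 5.597 to 2.02 and 3.28 RPKM (-0.93 ± 0.23) and Hist2h2ac from 45.2 and 37.3 to 28.1 and 20.7 RPKM (-0.75 ± 0.16). These are short genes of the clusters that supply new chromatin in dividing cells, and many have close copies. The values moved with transcript length and G+C content. With that trend removed the median was -0.12, 2 histone genes were higher and 1 lower, the latter being H1f0, the linker histone of resting cells (213 and 222 against 158 and 141 RPKM). In that setting the 4 cluster genes named had adjusted p-values of 0.0551 to 0.208, with Hist2h3c2 at -0.60 and Hist2h2ac at -0.28. All 5 were lost without HuR-FKO 2 (0.0895 to 0.228), when Hist2h3c2 and Hist1h2bq stood at -0.67, and H1f0, Hist1h2bq and Hist1h1d without HuR-FKO 1 (0.0582 to 0.209).

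The direction of a call went with transcript length and with level across all genes. Genes were ranked and cut into 5 equal bins. In the bin with the shortest transcripts (315 to 1661 bases) 69 rose and 216 fell, with a median change of -0.14, and in the longest bin (4942 to 21690 bases) 186 rose and 41 fell, with a median of 0.21. By mean level, 130 rose and 41 fell in the lowest bin (up to 13.6 RPKM) and 121 rose and 218 fell in the highest (from 90.1 RPKM). Rises became more frequent and falls less frequent at each step of length, and falls became more frequent at each step of level, while rises did not follow level in order. The trend over length was removed together with that over G+C content, and that over level was not. In that setting 577 genes rose and 392 fell of 8303, of which 448 and 316 were also called without the removal. The part of length, base composition or RNA quality in the calls was not tested.

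**Figure D5:**
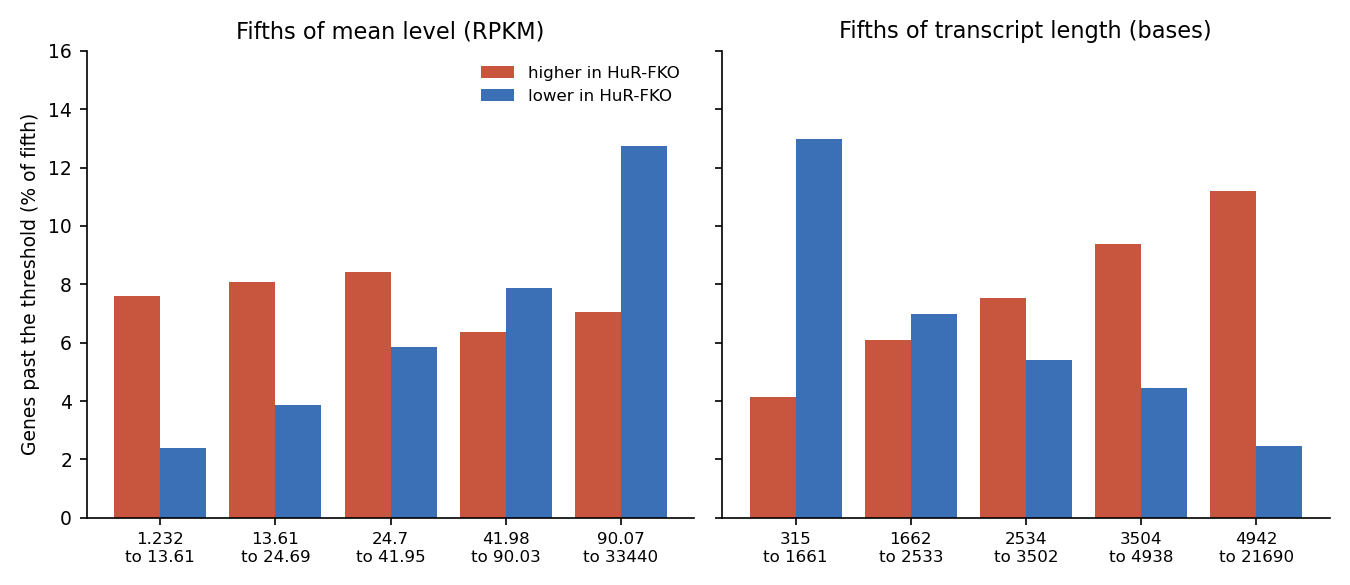
Percentage of genes that rose (red) and fell (blue) in HuR-FKO in 5 equal bins of mean mRNA level in RPKM (left) and of transcript length in bases (right). Falls outnumber rises in the shortest bin (216 against 69 genes), and rises outnumber falls in the longest (186 against 41).

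Markers of cell types were set beside these changes. Of 22 adipocyte markers 3 rose and 5 fell (36.4% against 14.0% of all genes). Their median of 0.00 was negative with median ratio scaling and with quantile normalization. Dgat2, which completes triglyceride synthesis, went from 2019 and 1975 to 1073 and 1044 RPKM (-0.92 ± 0.11), Lep, the leptin gene, from 342 and 379 to 219 and 223 RPKM (-0.70 ± 0.11), and Adrb3, the beta 3 adrenergic receptor, from 1026 and 903 to 694 and 556 RPKM (-0.63 ± 0.14). Acvr1c, given above, was the largest rise of the list. The summed level of the list was 93609 and 93453 RPKM in Ctrl and 103629 and 102414 RPKM in HuR-FKO, of which Fabp4, a fatty acid binding protein, made up 26435 and 32249 RPKM in Ctrl and 37985 and 38627 RPKM in HuR-FKO. Without Fabp4, a split chosen after the values were seen, the sums were 67175 and 61204 against 65644 and 63786 RPKM and the genotypes overlapped. The part of adipocyte content in the falls was not tested. Lep was lost without HuR-FKO 1 and without HuR-FKO 2, and Adrb3 without HuR-FKO 2 (limma adjusted p 0.0572 to 0.157).

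Macrophage markers were higher where they were called. Of 19 defining markers measured 6 rose and none fell (31.6% against 14.0% of all genes, median 0.28). Their summed level was 2459 and 2287 RPKM in Ctrl and 2920 and 2673 RPKM in HuR-FKO. Cd163, a scavenger receptor of resident macrophages, went from 43.4 and 32.0 to 72.5 and 67.8 RPKM (0.89 ± 0.15, limma adjusted p = 0.0049). Cd14, the lipopolysaccharide co-receptor, went from 36.3 and 31.9 to 55.9 and 53.9 RPKM (0.67 ± 0.12), and Mertk, a receptor for dying cells and for Gas6, from 19.96 and 20.1 to 30.4 and 32.0 RPKM (0.61 ± 0.12). Itgam, given above, was also of this list. Of 8 neutrophil and mast cell markers in the table, of 26 listed, 3 rose and none fell (37.5%, median 0.39). Retnlg, a resistin-like gene of neutrophils, measured 6.23 and 5.97 against 10.8 and 11.4 RPKM (0.77 ± 0.16), and Cma1, a mast cell chymase, 4.22 and 5.55 against 7.83 and 9.21 RPKM (0.70 ± 0.19). That list summed to 59.3 and 54.7 RPKM in Ctrl and 80.0 and 82.6 RPKM in HuR-FKO. S100a8, given above, was the other rise of that list and is part of its sum. C5ar1, Ms4a4a, Ms4a6c, Itgb2 and the cytokine receptors named above moved in the same direction as these markers, while 1 other cytokine receptor fell. The part of these cell types in those changes was not tested. Cd163, Cd14, Itgam, Mertk, Retnlg and Cma1 were lost without HuR-FKO 1 and without HuR-FKO 2 (adjusted p 0.0639 to 0.274), Cma1 without Ctrl 1 (0.0601), and Retnlg and Cma1 with voom (0.0964 to 0.119).

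Endothelial markers differed between the Ctrl pools. Of 18 measured 2 rose and 1 fell, 16.7% called and near the 14.0% of all genes, and the list summed to 1575 and 2537 RPKM in Ctrl and 2191 and 2289 RPKM in HuR-FKO, so Ctrl 1 lay well below the other libraries. The median of 0.23 was -0.16 without Ctrl 1. Lyve1, a marker of lymphatic endothelium that macrophages of fat also carry, went from 40.6 in both Ctrl libraries to 74.3 and 65.0 RPKM (0.76 ± 0.12, limma adjusted p = 0.0037), and Ptprb rose as given above. Cldn5, a claudin of tight junctions, went from 286 and 409 to 233 and 231 RPKM (-0.56 ± 0.16). Without Ctrl 2, Cldn5 stood at -0.30 (adjusted p = 0.202), and with the trend removed it stood at -0.25 (0.361). Lyve1 was lost without HuR-FKO 1 (0.064), and Cldn5 without either HuR-FKO library (0.203 and 0.226). For Klf2, S1pr1, Angpt1 and Adcy4, which endothelial cells or their partners use, the part of endothelial content was not tested.

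Markers of blood, muscle and nerve were lower where they were called, which for muscle and for nerve was 1 gene of 3. Of 9 red blood cell markers 6 fell and none rose (66.7% against 14.0% of all genes, median -1.06). Their summed levels were 12582 and 8557 RPKM in Ctrl and 3745 and 6171 RPKM in HuR-FKO. Beside the alpha globins, the beta globin gene Hbb-bs went from 2820 and 1841 to 876 and 1347 RPKM (-1.07 ± 0.23). The beta globin entry Hbb-b1 went from 1013 and 675 to 319 and 488 RPKM (-1.07 ± 0.22). These globin entries ran alike across the libraries, and the part of shared reads was not tested. All 4 of these globin genes were lost without HuR-FKO 1 (limma adjusted p 0.113 to 0.151). With the trend removed, 1 gene of the list fell and it was Fech, a heme synthesis gene that was not called with the trend in place (adjusted p = 0.0753). In that setting Hba-a1, Hba-a2, Hbb-bs and Hbb-bt had adjusted p-values of 0.0938 to 0.104, and Hbb-b1 and Hbb-b2 were not in the fit. Of 3 skeletal muscle markers measured, Myl1, a fast myosin light chain, went from 88.0 and 93.9 to 45.7 and 52.6 RPKM (-0.88 ± 0.12). Of 3 Schwann cell and nerve markers, Pmp22, a myelin protein that other cells also express, went from 219 and 232 to 158 and 157 RPKM (-0.51 ± 0.11) and was lost without HuR-FKO 1 (0.104) and without HuR-FKO 2 (0.118). T cell and B cell markers each had 1 gene in the table, of 28 and 18 listed.

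The nearest measured genes on each side of the floxed gene and of the promoter gene of the Cre transgene were described by position. Not all of them are close. Arglu1, Lig4, Abhd13 and Irs2 start 4381516 to 6699900 bases from the start of Elavl1, and Cers4 208037 bases. Leprel1, Il1rap and Ccdc50 start 2812748 to 4240529 bases from the start of Adipoq, and Bcl6 818514 bases. Of the 5 measured genes on each side of Elavl1, only Cers4, a ceramide synthase gene, was called, at 33.1 and 36.7 against 49.6 and 51.4 RPKM (0.52 ± 0.12, limma adjusted p = 0.020). Cd209g, Evi5l, Map2k7, Snapc2, Timm44, Arglu1, Lig4, Abhd13 and Irs2 were not called, with differences of -0.38 to 0.33. Of the 5 on each side of Adipoq, Eif4a2, a translation initiation helicase gene (0.54 ± 0.11), and Rtp4, a receptor transporter gene induced by interferon (0.48 ± 0.12), rose and Bcl6 fell, as above. Igf2bp2, Tra2b, Etv5, Dnajb11, Leprel1, Il1rap and Ccdc50 were not called (-0.18 to 0.50). Cers4, Eif4a2 and Rtp4 were lost without HuR-FKO 1 (adjusted p 0.0892 to 0.163) and without HuR-FKO 2 (0.118 to 0.145), and Rtp4 without Ctrl 2 (0.0549). With the trend removed Cers4 stood at 0.33. Across chromosomes, the share of genes called was highest on chromosome 19 (17.7%) and was 14.0% on the X.

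Genes at the threshold show how small a called difference could be. Just inside it, A4galt went from 17.8 and 17.6 to 24.1 and 23.9 RPKM (0.42), Sfxn3 from 29.0 and 28.5 to 42.9 and 35.99 RPKM (0.44), and Bst1 from 5.68 and 3.98 to 8.39 and 7.89 RPKM (0.66). Just outside it, Gpn3 measured 23.2 and 23.5 against 17.5 and 16.9 RPKM (-0.42), Tsen34 110 and 109 against 87.5 and 78.5 RPKM (-0.39), and Foxn3 17.8 in both Ctrl libraries against 27.5 and 22.6 RPKM (0.46). The genes on either side of the line had similar differences.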

How the data were processed

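RPKM values of 8562 genes, scaled by coding length and by each library's coding reads, were deposited by the authors in 1 table for the 8 libraries. Per the labels, RNA was extracted with the miRNeasy kit, libraries were made with the NEBNext Ultra RNA kit, and the tools were Bowtie 1.0.0, TopHat2 2.0.9 and cutadapt 1.8.3. The counting program, annotation and genome build, and whether strand was used, were not given in the sources used here. Every listed value is above 1 RPKM, so lower genes are not analysed here. The table's further columns hold the authors' log2 and log10 ratios of group values and were not used. The ribosome-protected fragment libraries entered only an alternative fit.

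Whole reads were recovered from the deposited RPKM values for 98.2% of the 8303 genes with a GENCODE length, within 0.001 read, and give the depths. Reads are not independent molecules, so precision from depth covers counting error only, and n = 2 pools limits each comparison. Levels were tested as log2(RPKM + 1) on the 4 mRNA libraries with limma 3.58.1 (R 4.3.3; lmFit, eBayes with trend), two-sided, Benjamini-Hochberg over all genes, threshold 0.05. Genes were kept at a mean above 1 RPKM in a genotype, which removed none. With 2 against 2 libraries an exact permutation test cannot go below p = 0.333. Fold changes understate the change of low genes. The scripts were tested on simulated data. Positions and promoters are RefSeq's, GRCm38.p6, and 8414 genes matched by transcript ID. Figures were drawn with matplotlib 3.10.9.

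The comparison, gene lists and genes named were chosen with earlier results of these data known. Named genes are the 20 largest rises and 20 largest falls among called genes without overlap and with a mean of at least 5 RPKM in a genotype, outside fat and sterol synthesis, respiratory chain, ribosome, proteasome, immediate early and stress genes. Also named are up to 4 called members of each list described, Elavl1, Adipoq and their neighbours, and 3 genes on each side of the threshold. Of the largest rises 1 gene is not reported here. A list is described by counts and median, with no test. After values were seen, the symbol patterns of 5 families were corrected because they took in genes of other families (histones, Ets factors, integrins, tubulins, TRP channels). The alternatives comprised no filter, a filter at 5 RPKM, a pseudocount of 0.1, median ratio scaling, quantile normalization, a replicate block, eBayes without trend, a fit over all 8 libraries, each library left out, subtraction of each library's trend over G+C content and transcript length (splines, 4 degrees of freedom), and voom on the recovered reads.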

Additional observations from a re-analysis of the deposited data

How the results depend on the processing

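Counts of 642 higher and 560 lower genes moved by over 1.5 times with the shared fit over all 8 libraries (150 and 104). With the replicate number as a block they also moved by over 1.5 times, to 1125 and 1031. All calls made without the block were kept, but that fit leaves 1 residual degree of freedom. Irf4 there had a limma adjusted p of 4.5e-60, against 2.7e-05 without the block, so keeping the calls says little. Fits without 1 library also leave 1 degree of freedom and take their spread from the pair left in. Leaving out 1 library gave 131 to 925 higher and 95 to 717 lower genes, the lowest counts without HuR-FKO 1 and the highest without Ctrl 1; the cause was not tested. Same-numbered libraries shared only a number, their deviations correlating at 0.155, so the block is no pairing of the samples. Other settings gave 487 to 876 higher and 392 to 626 lower genes, and median ratio scaling gave more falls than rises (531 higher, 626 lower), as did quantile normalization (487 and 536). Of 150 called genes named, 58 passed without HuR-FKO 1, 67 without HuR-FKO 2, 134 without Ctrl 2, 140 without Ctrl 1, 70 in the shared fit, 123 of 148 with the trend removed and 140 with voom, and 0 were called in the other direction. Signs turned only in uncalled genes. With median ratio scaling these were Adipoq (-0.004), Snapc2 (-0.022) and Dnajb11 (-0.007), and with quantile normalization Adipoq (-0.141), Snapc2 (-0.076), Lig4 (-0.149), Tra2b (0.027) and Il1rap (-0.20). After removal of the trend they were Lig4 (-0.116) and Il1rap (-0.108). Leaving out each library in turn gave -0.225 to 0.056 for Elavl1, -0.042 to 0.081 for Adipoq, -0.023 to 0.024 for Snapc2, -0.027 to 0.152 for Lig4, -0.044 to 0.713 for Irs2, -0.126 to 0.109 for Tra2b, -0.161 to 0.193 for Dnajb11 and -0.108 to 0.18 for Il1rap. In each library 41 to 80 genes had fewer than 20 reads, and several named genes were among them. In Ctrl 1 and Ctrl 2, S100a8 had 4 and 11 reads, Saa3 11 and 25, and Serpina3i 17 and 13. Gprc5a had 16 and 14, Tdo2 16 and 18, and Retnlg 12 and 17 there. Hist1h1d had 7 and 13 reads in HuR-FKO 1 and HuR-FKO 2.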

Other observations

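Several classes stayed at or below the 14.0% of genes called overall. None of 14 peroxisome biogenesis genes was called, nor any of 7 brown and beige fat markers, 16 nucleoporins or 8 forkhead factors, by limma at an adjusted p under 0.05. At an unadjusted p under 0.05 limma counted 1, 2, 2 and 1 of them in that order, and voom called 0, 0, 0 and 1. Of 25 brown and beige fat markers listed, only those 7 were in the table. Cell cycle and division genes had 2 falls and no rise among 21 (9.5%). Of 53 genes of mRNA decay and deadenylation, the machinery that HuR is known to oppose on its targets, 4 rose and 2 fell with a median change of 0.12. Nucleotide and NAD metabolism had 6 rises and no fall among 49 genes with a median of 0.00. Among small families, 3 of 7 TRP and Piezo channel genes rose and 3 of 5 homeobox cluster genes fell, where the medians were 0.33 and -0.51, and 0.11 and -0.31 once the trend over length and G+C content was taken out. These families were picked out after their values were seen.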
